A study of Rattus norvegicus with 18 samples.

Results

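Aadat and Glul, a pair of genes for enzymes of amino acid metabolism, were followed in kidney RNA of healthy and diabetic rats with and without plantain flour. They were chosen by gene name, as 2 of the 29 features listed in the count table, and both were found. The table lists 16 named nuclear genes, 12 mitochondrial genes and 1 unnamed feature, measured by RNA-seq in 18 libraries, 3 in each of 6 groups. All rats were male and 23 weeks old. The healthy rats of group NC received water, and those of group NH received plantain flour at the high dose. Diabetic rats received water (DM) or flour at a low (LP), medium (MP) or high (HP) dose, which the series gives as 1, 2 and 4 g per kg body weight. The strain, the amount of flour per kg for NH, the way diabetes was produced and whether the replicates were separate animals are all not given in any of the sources used here. P-values therefore measure the spread between these libraries. The study asked how the flour bears on kidney transcripts in diabetes.

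Aadat encodes aminoadipate aminotransferase, also called kynurenine aminotransferase II, a mitochondrial enzyme. It moves amino groups from 2-aminoadipate, in the breakdown of lysine, and from kynurenine, a product of tryptophan, which becomes kynurenic acid. Glul encodes glutamine synthetase, which joins ammonia to glutamate and so uses up ammonia. The kidney also makes ammonia from glutamine, chiefly in the proximal tubule, and releases it into urine and blood when it handles acid. Glutamate links both enzymes, as a product of the first and the substrate of the second.

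In the table, Aadat (ENSRNOG00000011861) lies on chromosome 16 from 32832061 to 32868702 on the minus strand, with a listed length of 2066 bases. Glul (ENSRNOG00000049560) lies on chromosome 13 from 71331052 to 71340229 on the plus strand, with a length of 2485 bases. These positions are as deposited, and their rat build is not given in the sources used here. RefSeq lists 2 Glul pseudogenes, on chromosomes 15 and 19, and 0 for Aadat by name, so reads shared with near copies are an uncertainty for Glul. The 250 bases before each RefSeq start site (build GRCr8) are shown because both genes were lower in NH than in NC and higher in HP than in NH. RefSeq gives 1 start for Aadat, just below the lower end of chr16:34555181-34555430 (minus strand), and 2 for Glul, after chr13:68519250-68519499 and chr13:68575816-68576065 (plus strand). The 2 Glul starts are farther apart than the listed Glul span is long, and which start gave the counted reads was not measured. Capitals mark the motif CCAAT, the motif GGGCGG or the motif AGGTCA on either strand (ATTGG is CCAAT on the other strand), and no marked motif overlaps another.
Aadat: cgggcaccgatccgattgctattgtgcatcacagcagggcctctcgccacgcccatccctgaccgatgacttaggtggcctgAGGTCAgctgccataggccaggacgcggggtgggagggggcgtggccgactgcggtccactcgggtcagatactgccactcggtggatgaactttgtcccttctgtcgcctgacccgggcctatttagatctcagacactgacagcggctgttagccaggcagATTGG
Glul, first start: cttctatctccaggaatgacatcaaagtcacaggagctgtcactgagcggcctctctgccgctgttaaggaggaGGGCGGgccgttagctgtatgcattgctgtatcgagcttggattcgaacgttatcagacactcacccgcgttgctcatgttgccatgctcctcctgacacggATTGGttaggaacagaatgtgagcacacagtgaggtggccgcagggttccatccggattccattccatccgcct
Glul, second start: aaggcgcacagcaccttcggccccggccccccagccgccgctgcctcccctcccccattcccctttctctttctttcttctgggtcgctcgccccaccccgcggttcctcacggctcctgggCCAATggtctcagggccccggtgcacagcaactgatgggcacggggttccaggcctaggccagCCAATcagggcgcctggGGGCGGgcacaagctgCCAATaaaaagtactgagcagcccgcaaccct

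CCAAT was present before all 3 starts, with 3 matches before the second Glul start and 1 before each of the others. Of 33469 upstream regions of the same length, 34% hold it. GGGCGG was found once before each Glul start and not before Aadat (30.5% of regions hold it). AGGTCA, a core element of nuclear receptor sites, was found once, before Aadat (14.1%). TATAAA (12.9%), GTTAAT (6.45%) and TGACGTCA (1.59%) had 0 matches before any of the 3 starts. These matches are letters in a window, and no binding was measured.

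Listed counts summed to between 4440262 and 10306858 per library, which is not a sequencing depth, since only 29 features are listed. Mitochondrial genes took 92.7 to 95.5% of the named counts in healthy libraries and 77.1 to 88.7% in diabetic ones, with HP replicate 1 the highest diabetic library. With so short a list, the way libraries are scaled to each other decides many fold changes. Each was therefore computed under 4 scalings: trimmed mean of M-values (TMM, the main setting), factors from the median of ratios, the 14 other nuclear genes taken as a geometric mean (the nuclear scale), and no scaling. A change is said to hold when it passed an adjusted p of 0.05 in the same direction under all 4. Of the proximal tubule markers, 4 of 10 are among the listed features (Slc34a1, Miox, Cyp4a2 and Slc3a1). Markers of podocytes, thick ascending limb, collecting duct, endothelium, leucocytes and red cells are not listed. In whole kidney RNA, fewer cells of a type and less RNA per cell cannot be told apart.

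Aadat counts were between 22438 and 56676 in a library and Glul counts between 12374 and 40478. By summed counts they ranked 11th and 14th of the 16 nuclear genes. Counting error was at most 0.668% for Aadat and 0.899% for Glul, against a replicate SD of 5.34 to 10.6% and 3 to 17.6% of the group mean. The deposited Aadat counts of replicates 1 to 3 were 35582, 36140 and 39525 in NC and 23595, 23141 and 27133 in NH. They were 43151, 39533 and 43655 in DM and 22438, 24763 and 25640 in LP. In MP they were 35405, 37488 and 32087, and in HP 56676, 48256 and 46716. Aadat was thus low in NH and LP and highest in HP, and no LP library reached any DM, MP or HP library. Of all features, 48.3% did not overlap between LP and DM, 48.3% between MP and LP and 86.2% between HP and LP. For Glul the counts were 26342, 27557 and 32779 in NC and 12374, 17495 and 16483 in NH. They were 38970, 38528 and 35762 in DM and 31652, 30053 and 31685 in LP. In MP they were 31340, 36610 and 28876, and in HP 38317, 38520 and 40478. The 3 NH libraries were below every other library for Glul, with no overlap. Between NH and NC 51.7% of features did not overlap, and between HP and NH 62.1%. The share of features with 1 group apart from all other libraries was not computed.

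**Figure D1:**
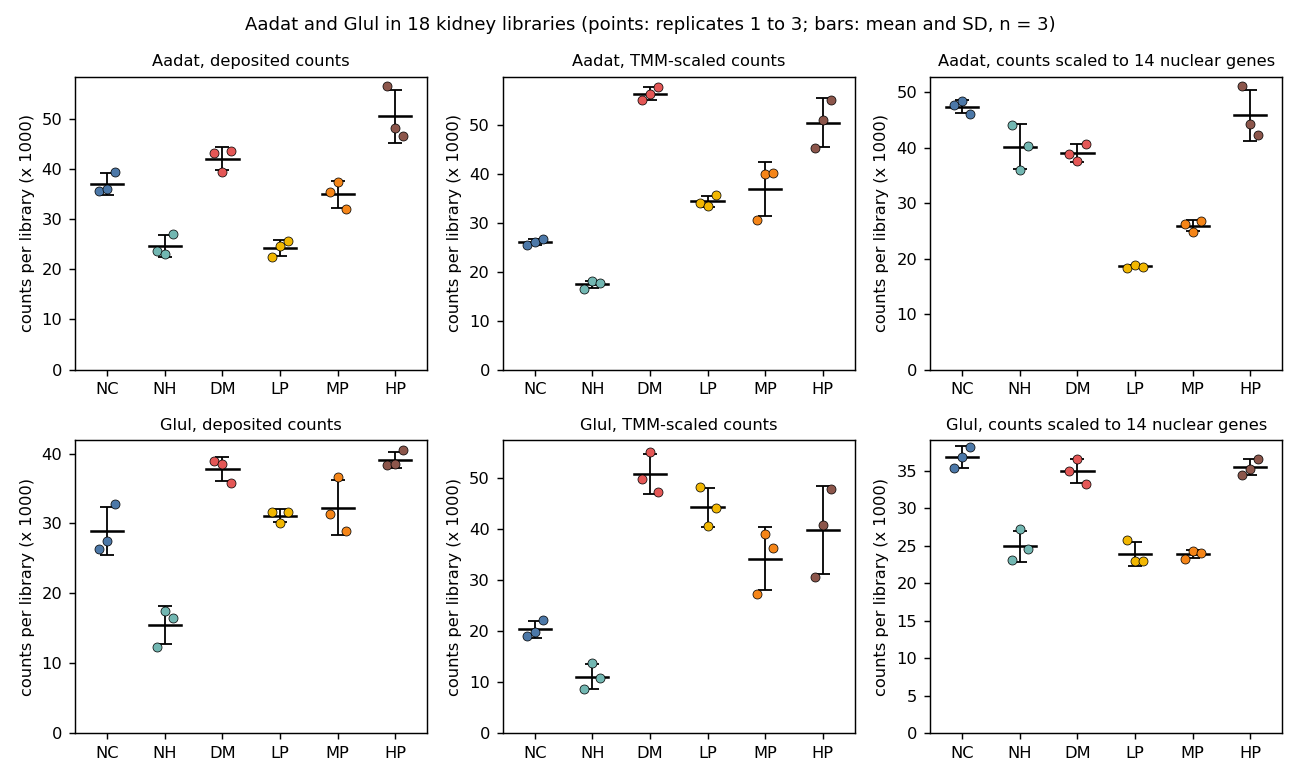
Counts of Aadat (top) and Glul (bottom) per library, as deposited, TMM-scaled and scaled to the 14 other nuclear genes; points are libraries, and bars are the mean and SD of 3. Among diabetic groups LP has the lowest Aadat mean in each panel, while the place of the healthy groups moves with the scaling.

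The order of the groups was not fixed across scalings. On the TMM scale the mean Aadat level ran from DM (56462 ± 1332 scaled counts, SD, n = 3) over HP, MP, LP and NC to NH (17430 ± 762). The neighbouring pairs DM and HP (log2 0.16, SE 0.097, adjusted p = 0.201 by edgeR) and MP and LP (0.10, SE 0.097, adjusted p = 0.486 by edgeR) did not differ beyond their spread, and the other 3 neighbouring pairs did. Scaled to the 14 nuclear genes, Aadat ran from NC (47423 ± 1140) over HP, NH, DM and MP to LP (18605 ± 317). There, NC and HP, and NH and DM, did not differ beyond their spread. Mean Glul levels ran on the TMM scale from DM (50720 ± 3925) over LP, HP, MP and NC to NH (11022 ± 2483). DM and LP, LP and HP, and HP and MP did not differ beyond their spread, while DM and MP, which are not neighbours, did. MP over NC and NC over NH passed. On the nuclear scale Glul fell into a high set of NC, HP and DM (means of 36835, 35492 and 34974) and a low set of NH, LP and MP (24948, 23918 and 23879). The only neighbouring pair that differed there was DM over NH (log2 0.49, SE 0.064, adjusted p = 3.62e-06 by edgeR).

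Untreated diabetic kidneys had more counts of both genes than healthy ones, but neither difference held. Aadat averaged 42113 ± 2249 deposited counts in DM and 37082 ± 2134 in NC, and Glul 37753 ± 1739 and 28893 ± 3420 (SD, n = 3). The DM libraries were above the NC libraries in both genes, with no overlap in deposited counts, where 93.1% of the listed features did not overlap. TMM gave a log2 fold change of 1.11 (SE 0.098) for Aadat and 1.32 (SE 0.18) for Glul, and both passed (adjusted p = 2.81e-08 and 4.67e-06 by edgeR), as did 55.2% of features. Under all 4 scalings 17.2% of features were higher and 6.9% lower, and neither member was among them. Aadat turned to -0.28 on the nuclear scale, where it was lower (adjusted p = 0.00245 by edgeR), and Glul to -0.07. Leaving out NC replicate 1 or 2, or DM replicate 1 or 3, changed the TMM value of Aadat to between 0.72 and 0.76. The same omissions gave 0.91 to 1.01 for Glul. Without NC replicate 3 or DM replicate 2 the values were 1.13 and 1.11 for Aadat and 1.39 and 1.26 for Glul. Ratios to other genes within a library need no scaling. Aadat and Glul were both higher against all 12 mitochondrial genes, with a median log2 difference in the ratio of 1.25 and 1.46. Against the 15 other nuclear genes, Aadat was lower than 9 without overlap and higher than 3 (Gclc, Hao2 and Slc3a1). Glul was lower than 7 and higher than 5. Of all 378 pairs of named genes, 86.8% had ratios that did not overlap between DM and NC.

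**Figure D2:**
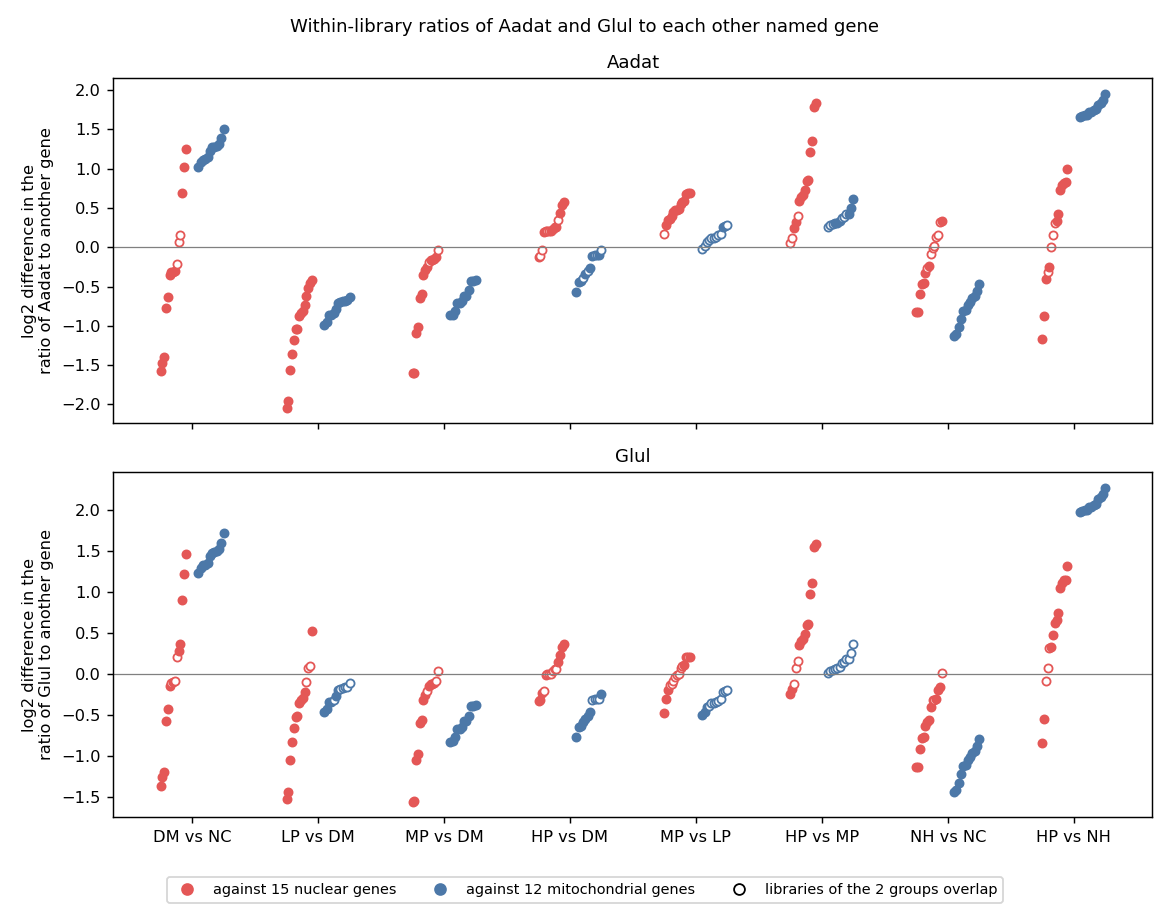
Difference between groups in the log2 ratio of Aadat (top) or Glul (bottom) to each other named gene within a library, for 8 comparisons; red points are 15 nuclear and blue points 12 mitochondrial partner genes, and open points are ratios whose libraries overlap between the groups. In LP against DM, all 27 Aadat points are filled and below 0.

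At the low dose, Aadat was lower than in untreated diabetic kidneys. The 3 LP libraries lay between 22438 and 25640 counts and the DM libraries between 39533 and 43655, with no overlap, as for 48.3% of features. Aadat was 1.49 to 2.1 times lower over the 4 scalings, and under TMM the log2 fold change was -0.71 (SE 0.097, adjusted p = 1.4e-05 by edgeR, the largest adjusted p of the 4), where 27.6% of features passed. No single LP or DM library decided this under any scaling. The background of features lower under all 4 scalings was 3.45%, which is Aadat itself. The direction of this change was known when the gene was chosen. Within libraries, Aadat was lower against each of the 15 other nuclear genes and each of the 12 mitochondrial genes, with no overlap in any of the 27 ratios. Over all pairs, 67.5% of ratios did not overlap. Against nuclear genes the Aadat differences ran from -2.04 for Pck1, a gluconeogenic enzyme, to -0.42 for Gclc, with a median of -0.87. Against mitochondrial genes they ran from -0.99 to -0.63, with a median of -0.75.

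Glul did not pass under all 4 scalings at the low dose. Its counts were 31130 ± 933 in LP and 37753 ± 1739 in DM (SD, n = 3). Every LP library was below every DM library, where 48.3% of features did not overlap. The TMM value was -0.20 (SE 0.17, adjusted p = 0.507 by edgeR). It passed on the nuclear scale alone (-0.55, adjusted p = 3.09e-06 by edgeR). Against nuclear genes Glul was lower than 11 of 15 and higher than 1, which was Aadat, and it was lower against 6 of the 12 mitochondrial genes and higher against none. Its ratios to Gclc and Slc3a1 were among those that overlapped between LP and DM. Of all 378 pairs of named genes, 67.5% had ratios that did not overlap there.

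At the medium dose both genes were lower than in DM under 3 of the 4 scalings. Aadat had 34993 ± 2724 counts and Glul 32275 ± 3951 in MP (SD, n = 3). The MP libraries were below the DM libraries for Aadat, and MP replicate 2 overlapped DM for Glul, while 62.1% of features did not overlap. Under TMM the log2 fold changes were -0.61 (SE 0.097) for Aadat and -0.57 (SE 0.17) for Glul, with adjusted p of 0.000118 and 0.0209 by edgeR, where 44.8% of features passed. Unscaled counts gave -0.27 (adjusted p = 0.052 by edgeR) and -0.23 (adjusted p = 0.143). Glul lost its TMM call without any 1 of the DM libraries or without MP replicate 1 (adjusted p of 0.0634 to 0.0975 by edgeR). Within libraries, both were lower against all 12 mitochondrial genes, Aadat against 13 and Glul against 12 of the 15 other nuclear genes, and neither was higher against any. Over all pairs, 70.1% of ratios did not overlap between MP and DM. Aadat and Glul overlapped in their ratio to each other.

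At the high dose, Aadat was back above its level at the medium and low doses. HP libraries held 46716 to 56676 Aadat counts, above every MP library (32087 to 37488) and every LP library. Over the 4 scalings Aadat was 1.31 to 1.77 times higher in HP than in MP (TMM log2 0.45, SE 0.097, adjusted p = 0.00167 by edgeR). It was 1.45 to 2.47 times higher in HP than in LP (TMM log2 0.55, SE 0.097, adjusted p = 0.000174 by edgeR). Among the listed features, 10.3% were higher under all 4 scalings against MP and 6.9% against LP. Those passing under TMM alone were 27.6% and 48.3%, and those without overlap in deposited counts 48.3% and 86.2%. The call against MP did not depend on any single library under any scaling. Against LP, Aadat was higher against all 15 other nuclear genes without overlap, where 67.2% of all pairs did not overlap. Glul was 1.11 to 1.49 times higher in HP than in MP and passed on the nuclear scale alone (0.57, adjusted p = 1.61e-06 by edgeR). Its 3 HP libraries, at 38317 to 40478 counts, were above the 3 MP libraries. In HP against MP, Glul was higher against 10 of the 15 other nuclear genes and overlapped in its ratio to all 12 mitochondrial genes, and Aadat was higher against 12 nuclear and 6 mitochondrial genes. Over all pairs, 50.8% of ratios did not overlap.

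Compared with untreated diabetic kidneys, the high dose left neither gene with a change that held. For Aadat the TMM value was -0.16 (SE 0.097, adjusted p = 0.201 by edgeR), and it was positive and passed on the nuclear scale (0.23, adjusted p = 0.0141 by edgeR) and without scaling (0.26, adjusted p of 0.0422). All HP libraries were above the DM libraries in deposited Aadat counts, as 65.5% of features were free of overlap in that comparison. For Glul the values ran from -0.35 under TMM to 0.05 unscaled and none passed, while 37.9% of features did under TMM. Within libraries, Aadat was higher against 8 nuclear genes, among them Gpx3 and Pck1, and lower against Gclc and 7 mitochondrial genes. Over all pairs, 63.8% of ratios did not overlap. Between MP and LP, Aadat was higher on the nuclear scale (0.48) and unscaled (0.53) and did not pass under TMM (0.10, adjusted p = 0.486 by edgeR), where 10.3% of features did. The deposited counts of 48.3% of features did not overlap between these doses. Aadat was higher there against 14 of 15 nuclear genes and 2 of 12 mitochondrial genes, where 39.7% of all pairs did not overlap. A straight line over dose described neither gene: the TMM slope was 0.01 (SE 0.051) log2 units per g per kg for Aadat and -0.07 (SE 0.032) for Glul (adjusted p = 0.888 and 0.114 by edgeR). Both slopes failed the threshold under all 4 scalings, while 17.2% of features passed under TMM.

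**Figure D3:**
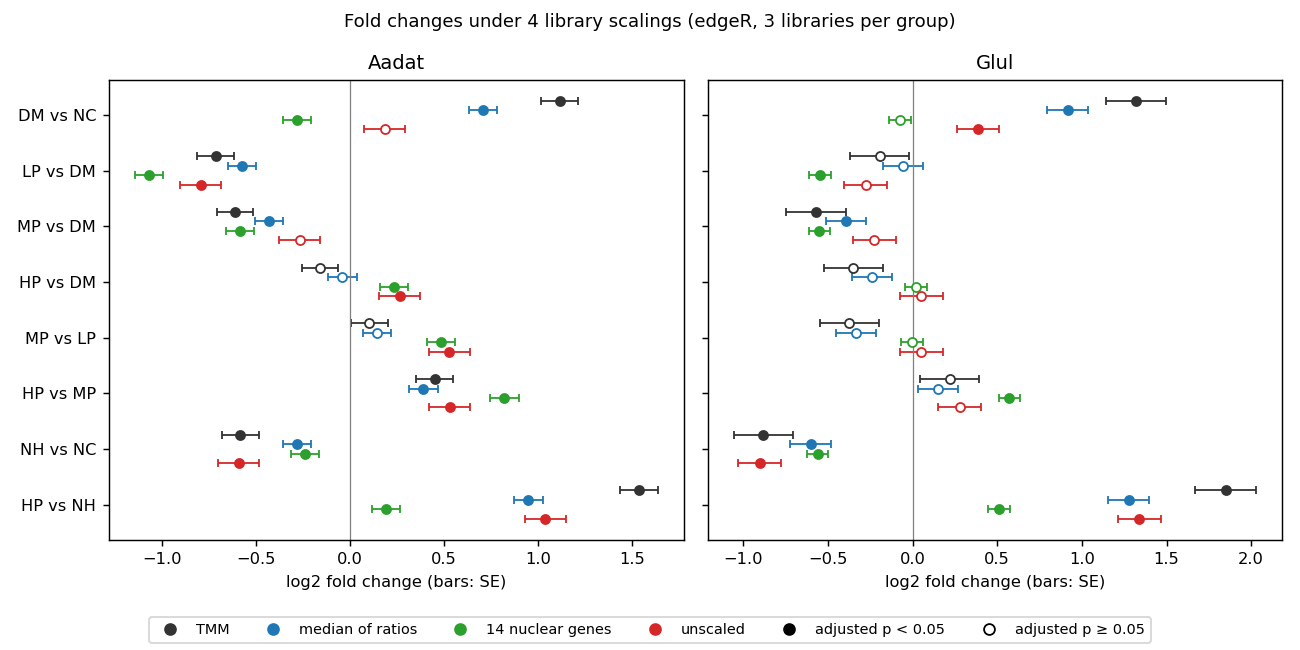
Log2 fold changes of Aadat (left) and Glul (right) with SE in 8 comparisons under 4 scalings by edgeR; filled points have an adjusted p under 0.05. For Aadat, all 4 points of LP against DM lie left of 0 and all 4 of HP against MP right of 0, while DM against NC has points on both sides for both genes.

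Both genes were lower in healthy rats given flour than in healthy rats given water. Glul averaged 15451 ± 2712 counts in NH and 28893 ± 3420 in NC, and Aadat 24623 ± 2186 and 37082 ± 2134 (SD, n = 3), with no overlap for either gene or for 51.7% of features. Glul was 1.48 to 1.87 times lower over the 4 scalings (TMM log2 -0.88, SE 0.18, adjusted p = 0.000996 by edgeR). Aadat was 1.18 to 1.51 times lower (TMM log2 -0.58, SE 0.097, adjusted p = 0.000215 by edgeR). Both calls held under all 4 scalings without any single NH or NC library. The background of features lower under all 4 scalings was 24.1%, with both members among them, and 51.7% passed under TMM. Within libraries, Glul was lower against 13 of 15 nuclear genes, all but Gclc and Aadat, and Aadat against 7, and both against all 12 mitochondrial genes. Over all pairs, 71.4% of ratios did not overlap.

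Between flour-fed rats, the diabetic HP group was higher than the healthy NH group in both genes. Glul was 1.42 to 3.61 times higher (TMM log2 1.85, SE 0.18, adjusted p = 9.87e-08 by edgeR) and this did not rest on any single library. Aadat was 1.14 to 2.9 times higher (TMM log2 1.54, SE 0.099, adjusted p = 6.38e-10 by edgeR). On the nuclear scale Aadat lost this call without NH replicate 2 (0.12, adjusted p = 0.126 by edgeR) or HP replicate 1 (0.11, adjusted p = 0.152). The background of features higher under all 4 scalings was 24.1% (20.7% were lower), 75.9% passed under TMM, and 62.1% did not overlap in deposited counts. The mitochondrial share, 94.4 to 95.5% in NH and 84.8 to 88.7% in HP, moved with this comparison, and its part in the differences was not tested. Against nuclear genes alone, Glul was higher than 10 of 15 and lower than 2, where 72% of all pairs did not overlap.

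The effect of the high dose in diabetic rats minus that in healthy rats was positive for both genes under each scaling, and the difference did not hold. In log2 it was 0.42 for Aadat (SE 0.14, adjusted p = 0.0706 by edgeR) and 0.53 for Glul (SE 0.25, adjusted p = 0.174) under TMM, where 3.45% of features passed. On the nuclear scale it was 0.47 and 0.58 (adjusted p = 0.0021 and 8.91e-05 by edgeR), and unscaled 0.85 and 0.95 (adjusted p = 0.000259 for each).

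The ratio of Aadat to Glul counts in the same library does not depend on any scaling. It was 1.35, 1.31 and 1.21 in NC replicates 1 to 3, 1.91, 1.32 and 1.65 in NH, and 1.11, 1.03 and 1.22 in DM. In LP it was 0.709, 0.824 and 0.809, in MP 1.13, 1.02 and 1.11, and in HP 1.48, 1.25 and 1.15. LP was the only group with more Glul than Aadat counts, and its 3 libraries were below the other 15. Between LP and DM, 67.5% of all pairs of named genes had ratios that did not overlap, between MP and LP 39.7% and between HP and LP 67.2%. The share of pairs with 1 group apart from all other libraries was not computed. Per kilobase of listed length the ratio was 0.939 ± 0.0753 in LP, 1.34 ± 0.118 in DM and 1.95 ± 0.352 in NH (SD, n = 3).

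**Figure D4:**
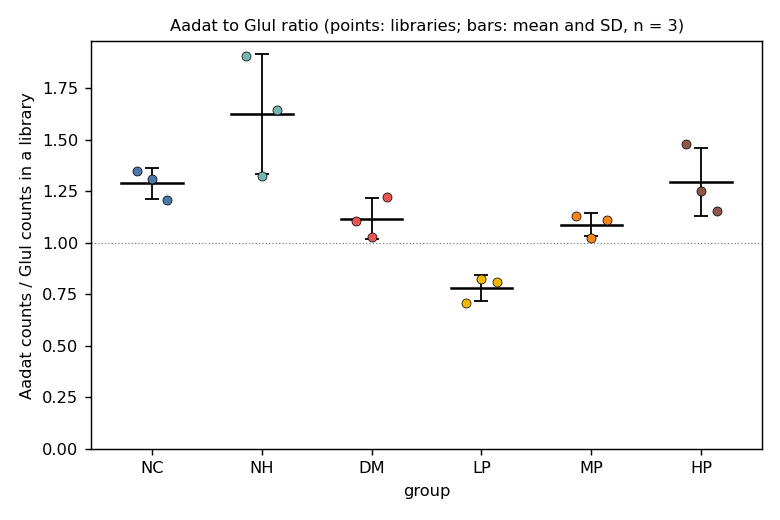
Ratio of Aadat to Glul counts within each library by group; points are libraries, bars the mean and SD of 3, and the dotted line marks equal counts. The 3 LP libraries lie between 0.709 and 0.824, under the line, and NH has the widest spread.

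LP had a ratio 1.43 times below that of DM (log2 -0.52, SE 0.1). The two-sided exact permutation p was 0.1, which is the lowest value reachable with 3 libraries on each side, and 0.22 after adjustment for the 11 tests of this ratio. It was 1.4 times higher in MP than in LP (0.48, SE 0.081) and 1.18 times higher in HP than in MP (0.24, SE 0.11), each without overlap and with the same exact permutation p of 0.1. Ratios without overlap made up 39.7% of all pairs between MP and LP and 50.8% between HP and MP. DM overlapped NC (log2 -0.21, SE 0.088), HP overlapped DM (0.21, SE 0.13), NH overlapped NC (0.32, SE 0.16) and HP overlapped NH (-0.32, SE 0.19), all with an exact permutation p of 0.2. MP and DM were close (-0.04, SE 0.085, exact permutation p = 0.9). The slope over dose was 0.10 (SE 0.053) log2 units per g per kg (exact permutation p = 0.0987, adjusted p = 0.22). The effects of the high dose in diabetic and healthy rats differed by -0.11 (SE 0.21, exact permutation p = 0.685). Over all feeds, the 12 diabetic libraries had a lower ratio than the 6 healthy ones (log2 -0.45, SE 0.13, exact permutation p = 0.00539 over 18564 splits, adjusted p = 0.0593). That comparison joins groups given different feeds, and the water-fed libraries alone gave -0.21 (exact permutation p = 0.2). The flour-fed libraries alone gave -0.64 (exact permutation p = 0.0136, not among the 11 adjusted tests). This pools LP, MP and HP against NH, which had the high dose only, so dose and diabetes cannot be told apart. At the high dose alone, HP against NH gave -0.32 (exact permutation p = 0.2).

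Of 16 genes of glutamine and glutamate metabolism, 14 of lysine and kynurenine breakdown and 8 amino acid carriers, 3 are among the listed features. They are Gclc, which joins glutamate to cysteine in glutathione synthesis, Pck1, which takes carbon from glutamine into glucose, and Slc3a1, the heavy subunit of the cystine and dibasic amino acid carrier. The 14 lysine and kynurenine genes, counted without Aadat, are not among the listed features and are not analysed here. Between HP and MP, Gclc and Slc3a1 rose under all 4 scalings with Aadat, and Pck1 fell (TMM log2 0.33, 0.40 and -1.37, adjusted p = 0.00401, 0.0465 and 9.09e-07 by edgeR). In LP against DM, Pck1 rose (1.33, SE 0.15, adjusted p = 2.06e-06 by edgeR) and Gclc fell under TMM (-0.29, SE 0.080, adjusted p = 0.0107), while Slc3a1 had -0.26 (adjusted p = 0.188). The median log2 fold change of the 3 was -0.26 there, against 0.10 over all features.

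The ratios of both members to Pck1 differed severalfold between diabetic groups, and Pck1 itself changed. Under TMM its log2 fold change was 1.33 in LP against DM, 0.99 in MP against DM and -1.37 in HP against MP. In the same comparisons Aadat had -0.71, -0.61 and 0.45, and Glul -0.20, -0.57 and 0.22. The ratio of Aadat to Pck1 was 0.617, 0.593 and 0.653 in DM and 0.808, 0.706 and 0.687 in HP. It was 0.147, 0.154 and 0.151 in LP and 0.205, 0.196 and 0.216 in MP. Glul to Pck1 was 0.557 ± 0.0216 in DM and 0.568 ± 0.0247 in HP, against 0.194 ± 0.0121 in LP and 0.189 ± 0.00653 in MP (SD, n = 3). Ratios without overlap made up 67.5% of all pairs between LP and DM, 70.1% between MP and DM and 50.8% between HP and MP. In both ratios to Pck1, LP and MP were low and DM and HP high. Healthy kidneys given water had higher values, 1.72 ± 0.0833 for Aadat and 1.33 ± 0.0442 for Glul. Relative to Gclc, the healthy and diabetic groups were apart, and Gclc itself was not steady. In DM against NC its log2 fold change was -0.14 under TMM (adjusted p = 0.141 by edgeR) and -0.55 with median-of-ratios factors. On the nuclear scale it was -1.54 and unscaled -1.07, while neither member had a change that held there. Aadat to Gclc was 0.462 ± 0.0046 in NC, 0.583 ± 0.015 in NH and 1.1 ± 0.00871 in DM, and Glul to Gclc was 0.359 ± 0.0241, 0.366 ± 0.0597 and 0.99 ± 0.0813. Every diabetic library was above every healthy one in both, where 86.8% of all pairs did not overlap between DM and NC and 72% between HP and NH. Glul to Slc3a1 was 0.996 ± 0.0579 in HP, against 1.14 ± 0.00673 in MP, 1.24 ± 0.0774 in DM and 1.3 ± 0.0696 in LP. HP was below the other diabetic groups with no overlap, and NC (0.664 ± 0.0262) and NH (0.451 ± 0.0337) were lower still. Of all pairs, 63.8% did not overlap between HP and DM, 67.2% between HP and LP and 50.8% between HP and MP. Slc3a1 itself was higher in HP than in MP under TMM (log2 0.40, adjusted p = 0.0465 by edgeR).

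**Figure D5:**
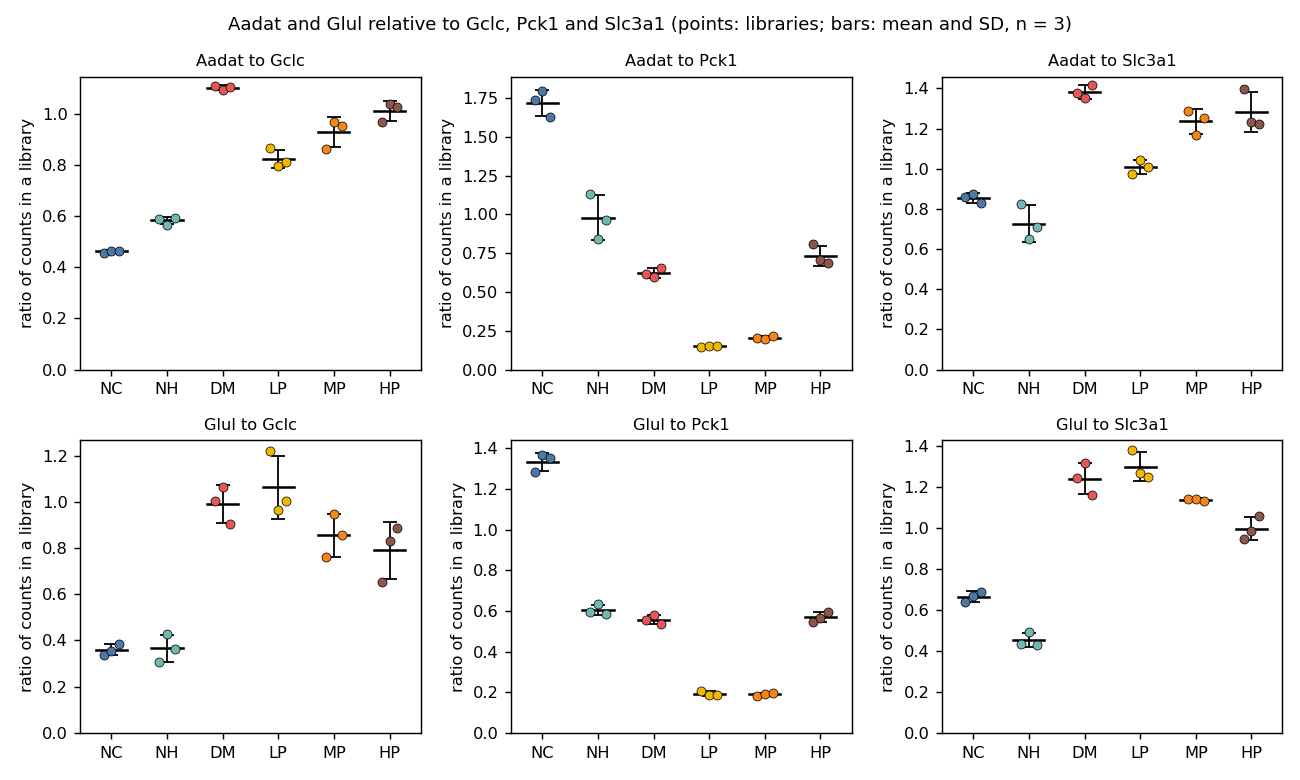
Ratios of Aadat (top) and Glul (bottom) counts to those of Gclc, Pck1 and Slc3a1 within a library, by group; points are libraries and bars the mean and SD of 3. LP and MP lie lowest in both ratios to Pck1, and NC and NH lie lowest in both ratios to Gclc.

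The genes whose counts stayed in the steadiest proportion to Aadat over the 18 libraries were Glul, Slc3a1 and Miox, the oxygenase of myo-inositol, with an SD of the log2 ratio of 0.353, 0.354 and 0.378. For Glul they were the elongation factor gene Eef1a1 (0.192), the ATP synthase subunit Atp5f1b (0.246) and the fatty acid hydroxylase Cyp4a2 (0.346). Aadat was the next for Glul. Pearson's r of log2 TMM-scaled counts, which shares the scaling factors between genes, was 0.921 for Aadat and Glul, 0.88 for Aadat and Slc3a1, and 0.973 for Glul and Eef1a1. On the nuclear scale these were 0.729, 0.834 and 0.793.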

How the data were processed

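Kidney RNA was sequenced in 18 rat libraries, made with the NEBNext Ultra RNA kit (1 µg of input, strand not marked) per the labels' protocols. CASAVA 1.7, the aligner Bowtie 0.12.2 and a mouse build, mm8, are named in the submitters' processing notes, with no role given. Which counter and annotation were used is not given in the sources read here. All 522 deposited values are whole numbers and were read as counts, although the authors' table is titled FPKM. Read as FPKM they would need 5.88 to 12.1 times the reads of a library. The authors' other columns give feature lengths and positions.

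Counts of all 29 features were fitted with edgeR 4.0.16 (quasi-likelihood F test, TMM, 1 fit over 18 libraries, 12 for the dose slope, no dispersion trend, no filter) in R 4.3.3. P-values were two-sided and adjusted over the 29 features by Benjamini-Hochberg, with a threshold of 0.05. The SE of a log2 fold change is its size over the square root of F. Alternatives were the 3 other scalings, DESeq2 1.42.0, a count minimum of 10, the replicate number as a block and leaving out each library. The step was tested on simulated data in which a few features changed, as many raised as lowered. The simulation held no shift in the mitochondrial share like that between DM and NC, so it cannot say how TMM behaves there. Ratios within a library were compared by exact permutation of the log2 ratio. The comparison of HP with LP and the ratios of each member to the other named genes were added after seeing the data and have no test of the ratios. Replicates differed far beyond sampling noise (chi-square per degree of freedom from 104 to 3662 over 18 pairs). Same-numbered libraries deviated together (r over 0.1 for all 3 numbers) in 2 of 15 pairs of groups, DM with MP and MP with HP, which the labels do not state.

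Genes named as most like a member were the 3 with the smallest SD of the log2 ratio over libraries. Of the pathway and marker lists, the features listed are named. The members and lists were chosen with earlier results of these data known. Results of some single genes are not reported here.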

Additional observations from a re-analysis of the deposited data

Results flagged for a closer look

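In deposited Aadat counts, the high dose went opposite ways in diabetic and healthy rats: every HP library was above every DM library, and every NH library was below every NC library. Without overlap were 65.5% of features in HP against DM and 51.7% in NH against NC. The rise in HP against DM depended on the scaling, with a log2 fold change of -0.16 under TMM and -0.04 with median-of-ratios factors. The difference of the log2 fold changes between diabetic and healthy rats was 0.85 unscaled. It was tested in the fit over all features, where it passed unscaled (adjusted p = 0.000259 by edgeR) and on the nuclear scale (adjusted p = 0.0021), and did not pass under TMM (adjusted p = 0.0706) or with median-of-ratios factors (adjusted p = 0.103).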

How the results depend on the processing

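In DM against NC the scaling moved the median log2 fold change over the listed features from 0.10 under TMM to -0.31 with median-of-ratios factors, -1.30 on the nuclear scale and -0.84 unscaled, so changes are relative to such shifts. Over all alternatives, 308 values kept their direction and their side of the threshold, 16 changed sign, 8 lost and 20 gained a call, and 3 counts moved. Some of the 308 could not gain or lose a call, so they do not measure stability. The count minimum removed none of the 29 features, and ratio tests between single groups cannot go below p = 0.1 by exact permutation. For the order of Aadat levels only the number of differing neighbours was compared, and the order itself moved on the nuclear scale and unscaled. On the nuclear scale, DM against NC turned to -0.28 for Aadat and -0.075 for Glul, and HP against DM to 0.23 and 0.021. Calls gained there were Glul in LP against DM (-0.55), Aadat in MP against LP (0.48), Glul in HP against MP (0.57), and HP over DM minus NH over NC (0.47 for Aadat, 0.58 for Glul). The Glul slope turned to 0.032 there and to 0.029 unscaled. Unscaled counts lost the calls of Aadat in DM against NC (0.18) and of Aadat (-0.27) and Glul (-0.23) in MP against DM. They turned HP against DM to 0.26 for Aadat and 0.051 for Glul, and MP against LP to 0.052 for Glul, and gained Aadat in MP against LP (0.53) and HP over DM minus NH over NC (0.85 and 0.95). DESeq2 called Glul lower in MP than in LP (-0.33). Of the 5 neighbouring pairs in the order of Glul levels, 1 differed on the nuclear scale and 1 unscaled, against 2 under TMM. By Pearson's r, 1 of the 3 genes most like Glul was shared with the main measure. The ratio of Aadat to Glul in MP against DM turned to 0.0051 by medians. In diabetic against healthy libraries it was -0.21 with water-fed libraries only (no longer under 0.05 before adjustment). With flour-fed libraries only, which pools LP, MP and HP against NH, it was -0.64. The cause of these shifts beyond the scaling itself was not tested.

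With the replicate number as a block, Glul in MP against LP (-0.40, adjusted p = 0.0491 by edgeR) and HP over DM minus NH over NC for Aadat (0.42, adjusted p = 0.0213 by edgeR) passed, and no other call changed. The labels do not state that the numbers pair the samples.

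Leaving out 1 library at a time gave -0.68 to -0.39 for Glul in MP against DM and -0.51 to -0.19 for Glul in HP against DM, which passed without HP replicate 3 (adjusted p = 0.0326 by edgeR). HP over DM minus NH over NC for Aadat was 0.35 to 0.61 and passed in 6 of 12 omissions: NC replicate 1 or 2, NH replicate 1, DM replicate 1 or 3, or HP replicate 1. Slopes ran from -0.0059 to 0.041 for Aadat, negative without any 1 HP library, and from -0.10 to -0.054 for Glul, which passed without HP replicate 3. The ratio ran from -0.097 to 0.029 in MP against DM, from -0.25 to 0.012 for HP over DM minus NH over NC, and from 0.064 to 0.13 for its slope (permutation p = 0.0339 without DM replicate 3). Counts were deep enough that counting error stayed under 1% of any value, so 3 libraries per group set the precision.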
